A study of Mus musculus with 4 samples.

Results

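The nuclear genes for the subunits of respiratory complexes II, III, IV and V were followed in mouse oocytes of 2 chromatin classes. The members were the genes whose symbol is Sdha, Sdhb, Sdhc, Sdhd or Cyc1, or begins with Uqcr, Cox4, Cox5, Cox6, Cox7, Cox8 or Atp5. They numbered 47 of the 17945 genes measured: 4 of complex II, 9 of complex III, 17 of complex IV and 17 of complex V. The oocytes were immature, with an intact germinal vesicle (the prophase nucleus), taken at postnatal day 20 from females without hormone priming, and held in medium with milrinone, which blocks the resumption of meiosis, at 1 µg/ml. Single live oocytes were imaged in bright field and sorted by a deep-learning image classifier into NSN (non-surrounded nucleolus) and SN (surrounded nucleolus) chromatin, the latter being the meiotically more competent state. There were 15 oocytes per class and 2 pooled libraries per class, named here NSN replicate 1 and 2 and SN replicate 1 and 2. Both classes received the same medium and milrinone, and no other agent or genetic change is named. The strain, and how the oocytes of a class were divided between its libraries, are not given in the sources used here. Nothing in the labels says that replicates came from separate animals, so the p-values here reflect how far libraries of a class differ, and that spread may be technical. The class of each oocyte is a prediction from its image.

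Oxidative phosphorylation is the main source of ATP in growing oocytes, which use pyruvate supplied by the surrounding cumulus cells. Complex II (succinate dehydrogenase) passes electrons from succinate to ubiquinone, complex III passes them to cytochrome c, and complex IV (cytochrome c oxidase) passes them to oxygen. Complexes III and IV pump protons, and complex V (ATP synthase) lets the protons back through its c ring to turn a central stalk inside the catalytic head. Subunits of complexes III, IV and V are also encoded by mitochondrial DNA, and these were not analysed here. Several complex IV subunits have a general form and a form known from particular tissues, such as heart, lung or testis.

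RNA was captured with oligo(dT), so the values reflect poly(A) tails as well as transcript number. Libraries held 32307398 and 32541920 estimated counts in NSN and 37023401 and 36922573 in SN, so depth differed with class. A floor of 3 counts is then between 0.081 and 0.0929 CPM (read counts scaled to the library total), and this floor covers counting error only. The 10 oocyte markers examined, among them Zp3, Gdf9 and Oosp1, summed to between 23437 and 25688 TPM (transcript abundance corrected for length and scaled to a fixed total) in the 4 libraries. The 11 granulosa and cumulus markers summed to 225 and 287 TPM in NSN and 220.2 and 266 TPM in SN, most of it Serpine2. Amh and Foxl2 were at or below 0.3 TPM in each library. Inhba, Fst and Amhr2 did not exceed 0.81 TPM, nor Hsd17b1 2 TPM. The rest of this list was higher. Cyp19a1 was at 25.4 and 28 TPM in NSN and 24.8 and 27.1 TPM in SN. Inha was at 12.3 and 4.79 TPM in NSN and 3.48 and 7.02 TPM in SN. Nr5a2 lay between 6.3 and 8.87 TPM, and Fshr between 2 and 3.72 TPM. Theca and stroma markers summed to at most 3.91 TPM, blood, immune and endothelial markers to 9.43 to 14.2 TPM, and striated muscle markers to at most 0.34 TPM. Among the blood markers, Hba-a1 was listed at 0 in both NSN libraries and at 1.87 and 2.75 TPM in SN. In pooled oocytes, fewer cells with a transcript and less of it per cell cannot be told apart.

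Subunit mRNAs were abundant and covered a wide range of levels. Together the 47 genes made up between 2.56% and 2.82% of all TPM in a library. Of the 47, 36 exceeded 100 TPM in each of the 4 libraries, 7 had a mean above 1000 TPM and 3 stayed under 10 TPM throughout. The most abundant was Atp5e, the epsilon subunit of the central stalk of ATP synthase, at 2457 and 2176 TPM in NSN and 2582 and 2159 TPM in SN, number 58 of all genes by mean TPM. Its values overlapped between the classes. Small accessory subunits generally stood above the large catalytic ones. The 24 members above 1 TPM with an effective length under 500 bases had a median of 820 TPM, against 228 TPM for the 22 longer ones. Across these 46 genes Spearman's rho of TPM with effective length was -0.475, a description of genes that share libraries and a length correction. That correction is large for short mRNAs: the effective length of Atp5k was 118.5 bases, so the TPM of the shortest members is the least certain.

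**Figure D1:**
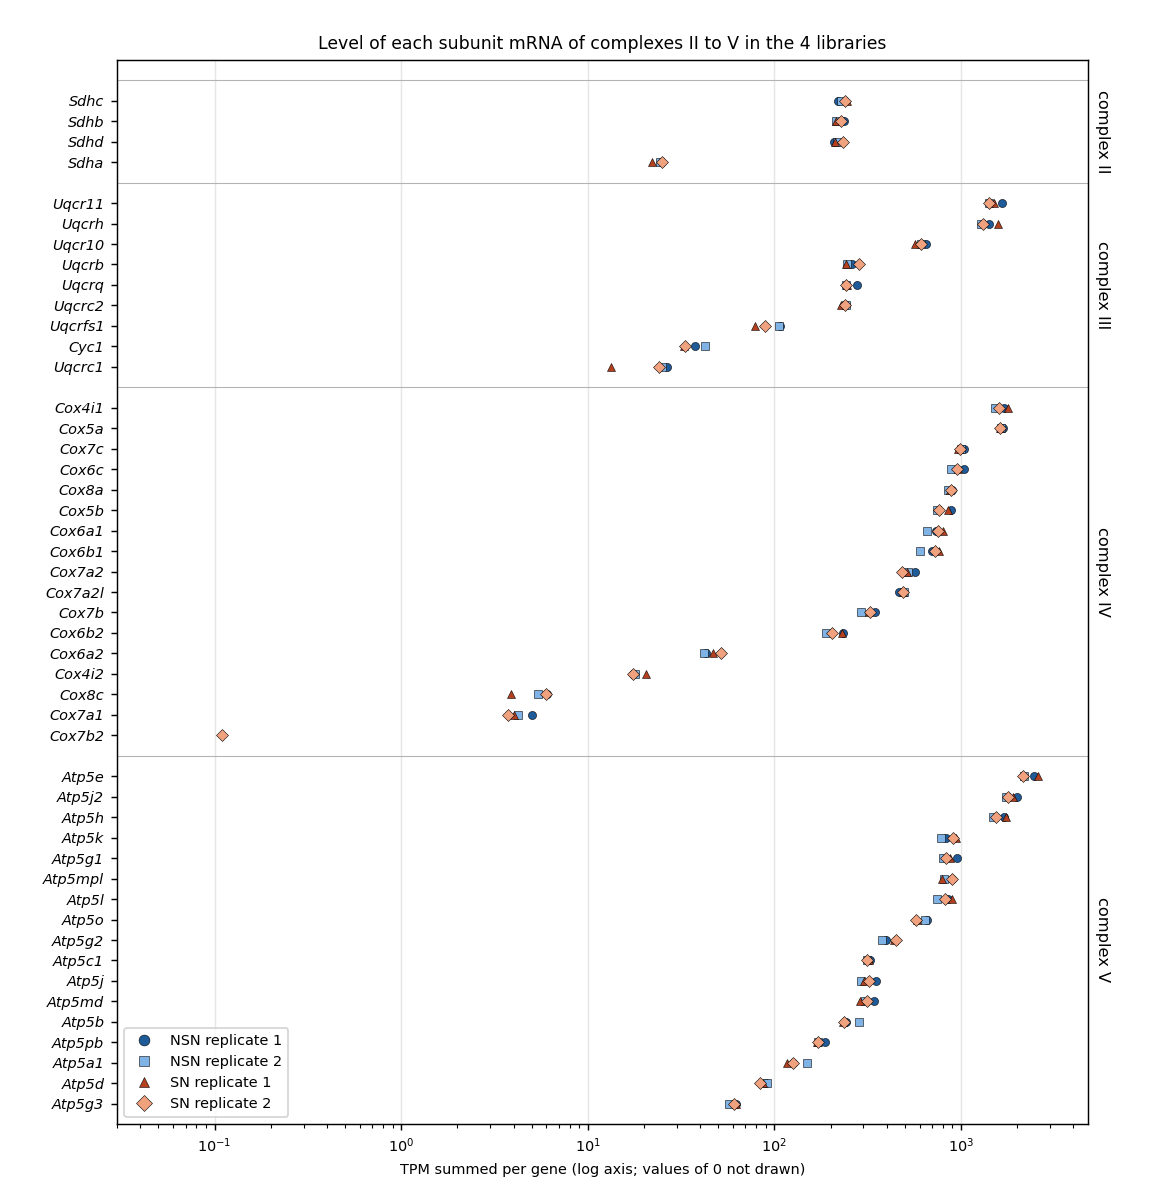
TPM summed per gene on a log axis for the 47 subunit genes, grouped by complex, with 1 marker per library. Atp5e leads at 2159 to 2582 TPM. In complex IV the tissue forms Cox7b2, Cox7a1, Cox8c, Cox4i2 and Cox6a2 lie below the other members of that complex. Sdha stands well below the other members of complex II, and Uqcrc1 is the lowest of complex III, with Cyc1 next.

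Within complex II the catalytic subunit was the rarest transcript. Sdha, the flavoprotein that oxidises succinate (gene ID 66945, chromosome 13, 74322255 to 74350240 in GRCm38), was at 24.7 and 24.4 TPM in NSN and 22.2 and 25 TPM in SN. Sdhb, the iron-sulfur subunit, was at 237 and 214 TPM in NSN and 215 and 227 TPM in SN. The membrane anchors that bind ubiquinone were near Sdhb: Sdhc was at 219 and 228 TPM in NSN and 244 and 239 TPM in SN, and Sdhd at 209.7 and 216 TPM in NSN and 212 and 232 TPM in SN. Sdhb, Sdhc and Sdhd did not separate from each other beyond the spread between libraries, whereas each was 8.5 to 11 times Sdha in each library. In complex III, Uqcrc1, a core protein on the matrix side, was the lowest at 26.7 and 25.1 TPM in NSN and 13.4 and 24 TPM in SN, with SN replicate 1 apart from the other 3 libraries. Its partner Uqcrc2 was at 242 and 243 TPM in NSN and 228 and 239.9 TPM in SN, 9.05 to 17 times Uqcrc1. The electron-carrying subunits were low as well: Cyc1 (cytochrome c1) was at 37.3 and 42.5 TPM in NSN and 32.7 and 33.3 TPM in SN, and Uqcrfs1 (the Rieske iron-sulfur protein) at 107 and 106 TPM in NSN and 78.4 and 89.4 TPM in SN. In TPM both SN libraries were below both NSN libraries for Cyc1 and Uqcrfs1, and also for Uqcrc1 and Uqcrc2. The share of all genes with this order in TPM was not counted, and on log2(TPM + 1) the median of all genes was -0.13. The highest of the complex was Uqcr11, a small accessory subunit, at 1661 and 1416 TPM in NSN and 1497 and 1414 TPM in SN, followed by Uqcrh, the hinge protein near cytochrome c1, at 1419.6 and 1287 TPM in NSN and 1577 and 1318 TPM in SN. The remaining members Uqcr10, Uqcrb and Uqcrq ranged from 242 to 651 TPM over the libraries.

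Complex IV was carried mainly by the general forms of its subunits, with the testis form of subunit 6B the most abundant of the tissue forms. Cox4i1, the general form of the largest nuclear subunit and the most abundant member of the complex, was at 1704 and 1514 TPM in NSN and 1778 and 1599 TPM in SN. Cox4i2, known from lung, was at 17.4 and 18 TPM in NSN and 20.5 and 17.5 TPM in SN, or 1.01% to 1.18% of the pair. Cox6a1, the general form of 6A, was at 736 and 659 TPM in NSN and 802 and 753 TPM in SN, and the heart and muscle form Cox6a2 at 43.1 and 41.9 TPM in NSN and 46.8 and 51.8 TPM in SN, which was 5.51% to 6.44% of the pair. Cox6b1, the general form of 6B, which faces the intermembrane space, was at 696 and 602 TPM in NSN and 766 and 723 TPM in SN. Cox6b2, known from testis and sperm (gene ID 333182, chromosome 7, 4751792 to 4753094), was at 233 and 188 TPM in NSN and 231 and 203 TPM in SN. Its share of the 6B pair was 25.1% and 23.8% in NSN and 23.1% and 21.9% in SN, so both SN libraries were slightly below both NSN libraries. This order of shares was not tested, and how often such shares separate the classes was not counted. In TPM Cox6b2 itself overlapped between the classes. Other tissue forms were rare. Cox7a1, the heart and muscle form of 7A, was at 5.01 and 4.23 TPM in NSN and 4.02 and 3.75 TPM in SN, against 567 and 517 TPM in NSN and 511 and 482 TPM in SN for the general Cox7a2. Cox8c, known from testis, was at 6.06 and 5.4 TPM in NSN and 3.89 and 5.98 TPM in SN, against 889.8 and 851 TPM in NSN and 870.2 and 881 TPM in SN for Cox8a. Cox7b2, also known from testis, had 0 counts in 3 libraries and 1 count in SN replicate 2, whereas Cox7b was at 346 and 289 TPM in NSN and 323 and 325 TPM in SN. A count of 0 allows up to 3 counts, or 0.0929 CPM at most. The muscle markers Ckm, Des, Myh6 and Myh7 did not exceed 0.18 TPM in a library.

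Cox7a2l, a relative of subunit 7A that joins complexes III and IV into supercomplexes, stood beside Cox7a2, at 466 and 493 TPM in NSN and 487 and 488 TPM in SN. The subunits without a second form, Cox5a, Cox5b, Cox6c and Cox7c, ranged from 747 to 1684 TPM over the libraries. Reads of a general and a tissue form are told apart by sequence. Between the leading GENCODE transcripts, the coding sequences of the complex IV pairs were 64.7% to 70.6% identical over aligned bases, and the longest exact run shared by their mRNAs was 14 bases.

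**Figure D2:**
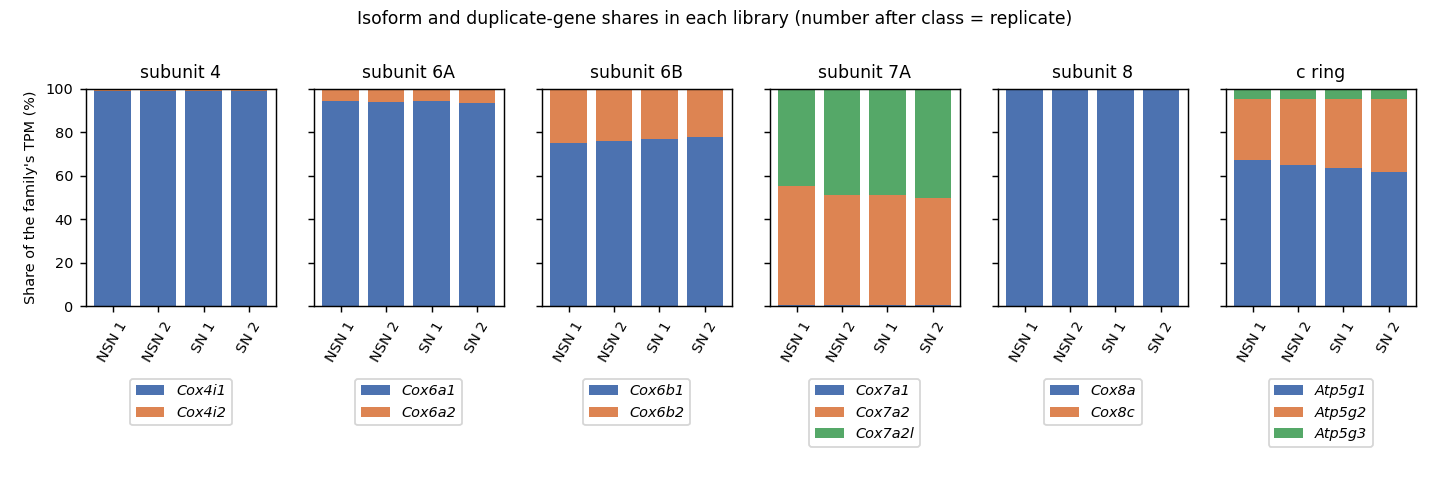
Share of each family's summed TPM taken by each gene, in percent, in the 4 libraries. Cox6b2 takes 21.9% to 25.1% of subunit 6B and Atp5g2 28.1% to 33.5% of the c ring, while Cox4i2, Cox7a1 and Cox8c take at most 1.18%.

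In complex V the c ring is encoded by 3 nuclear genes, whose mature proteins are known to be identical in mammals and which differ in their targeting sequences. The final 150 bases of the 3 coding sequences, from GENCODE M21 transcripts (GRCm38), are shown because reads must be assigned between these copies. Capitals mark, in Atp5g1, each base that differs in either copy and, in the others, each base that differs from Atp5g1.
Atp5g1: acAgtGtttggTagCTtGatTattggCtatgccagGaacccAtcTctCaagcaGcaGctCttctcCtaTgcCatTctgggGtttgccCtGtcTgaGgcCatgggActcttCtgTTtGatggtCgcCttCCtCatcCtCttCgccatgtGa
Atp5g2: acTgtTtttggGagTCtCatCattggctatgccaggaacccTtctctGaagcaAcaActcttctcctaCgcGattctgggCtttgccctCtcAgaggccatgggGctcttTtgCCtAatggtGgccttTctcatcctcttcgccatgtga
Atp5g3: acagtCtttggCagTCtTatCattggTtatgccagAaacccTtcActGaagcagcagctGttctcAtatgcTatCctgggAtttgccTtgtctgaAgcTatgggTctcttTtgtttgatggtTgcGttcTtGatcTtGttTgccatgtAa
Of the 150 positions, 111 were the same in all 3 genes, and 33 of the 39 that differed were at the last base of a codon. The longest exact run shared by 2 of the mRNAs was 21 bases, between Atp5g1 and Atp5g2, so that a longer read from either of the 2 mRNAs carries at least 1 difference. Atp5g1 was the leading copy at 952 and 805 TPM in NSN and 874 and 834 TPM in SN. Atp5g2 was at 397 and 379 TPM in NSN and 437 and 451 TPM in SN, with both SN libraries above both NSN libraries. Atp5g3 was the rarest tested member of the complex at 62.5 and 57 TPM in NSN and 62.3 and 61.1 TPM in SN. As a share of the c ring, which does not depend on scaling between libraries, Atp5g1 was 67.4% and 64.9% in NSN and 63.6% and 62% in SN, and Atp5g2 was 28.1% and 30.5% in NSN and 31.8% and 33.5% in SN. The classes did not overlap in either share, but with 2 libraries against 2 an exact two-sided permutation test cannot give a p below 0.333.

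The alpha and beta subunits of the catalytic head of ATP synthase had lower TPM than most of the small subunits around it. Atp5b, the catalytic beta subunit, was at 242 and 284 TPM in NSN and 234 and 236 TPM in SN, and Atp5a1, the alpha subunit, at 126 and 149 TPM in NSN and 117 and 125 TPM in SN, with NSN replicate 2 the highest for both. In TPM both SN libraries were below both NSN libraries for these genes, for Atp5o of the peripheral stalk and for Atp5d. The same held in complex IV for Cox5a, Cox7a1, Cox7a2 and Cox7c. The opposite order in TPM held for Sdhc, Cox6a1, Cox6a2, Cox6b1, Atp5g2 and Atp5k. How many of all genes had either order in TPM was not counted, and on log2(TPM + 1) the median of all genes was -0.13. On TMM-scaled counts the fitted log2 values of Atp5a1, Atp5b and Atp5o, given below, were near 0. That of Atp5d was 0.09 (SE 0.12). Atp5c1, the gamma subunit of the central stalk that turns in the head, was at 325 and 313 TPM in NSN and 323 and 313 TPM in SN, and Atp5d, the delta subunit of the same stalk, at 90.2 and 90.8 TPM in NSN and 87.3 and 83.9 TPM in SN. The peripheral stalk genes, which hold the head still, ranged from 169 TPM (Atp5pb) to 1735 TPM (Atp5h). Those of the membrane part, which include the dimer-forming subunits Atp5k and Atp5l, ranged from 288 TPM (Atp5md) to 1999 TPM (Atp5j2). Atp5k was at 833 and 779 TPM in NSN and 942 and 911 TPM in SN, Atp5l at 855 and 745 TPM in NSN and 892 and 821 TPM in SN and Atp5md at 342 and 306 TPM in NSN and 288 and 315 TPM in SN.

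The comparison of SN with NSN asked whether these mRNAs change as chromatin closes around the nucleolus. No member passed: edgeR's quasi-likelihood test called 0 of the 46 tested members at an adjusted p of 0.05, as it called 0 of all 13426 tested genes (0.0%). The smallest adjusted p among members was 0.662. Cox7b2 was too rare to be tested. Without adjustment, p was under 0.05 and the level higher in SN for 7 members (15.2%), against 4.01% of all genes, and lower in SN for 0, against 3.46%. DESeq2 with its independent filtering gave an adjusted p to 12 members, called 0 of them and called 6.99% of the 672 genes that had one; the other 34 members could not be called. Without that filtering, a setting added after seeing the data, DESeq2 called 0 of 46 members, against 0.0968% of all genes. Limma-voom called 0, against 0.0%. The log2 of SN over NSN was above 0 in 39 of 46 members (84.8%), against 48.0% of all genes, with a median of 0.13, against -0.01 over all genes. In CPM on TMM-scaled libraries (TMM is edgeR's scaling factor), 10 members (21.7%) had both SN libraries above both NSN libraries, near the 18.3% of all genes, and 2 had both below, against 20.7%. The other 34 overlapped. Most members were of log2 CPM 6 to 9, a range chosen after values were seen. Of the 2510 genes of that range, 8.96% were higher in SN and 2.07% lower at an edgeR unadjusted p under 0.05. Their log2 was above 0 in 63.5%, and 30.6% had both SN libraries above both NSN libraries. The 33 members of that range were at 18.2%, 0.0%, 90.9% and 24.2% in the same order. The median of 0.13 depended on the libraries: it was 0.02 without NSN replicate 2 and 0.01 without SN replicate 1, against 0.27 without NSN replicate 1 and 0.24 without SN replicate 2. It was -0.01 when scaled by library size alone and -0.03 on log2(TPM + 1), settings that moved the median of all genes to -0.15 and -0.13. Relative to that shift the members lay 0.14 and 0.11 higher. With cyclic loess, which left the median of all genes at 0, the members' median was 0.06 and 33 were above 0.

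The members with the smallest unadjusted p were higher in SN and came from complexes II, IV and V. Atp5g2 was at 136 and 118 CPM in the NSN pair of libraries against 173 and 153 CPM in the SN pair (log2 0.36, SE 0.11, edgeR unadjusted p = 0.00539). Sdhc was at 155 and 147 CPM in the NSN pair of libraries against 199 and 169 CPM in the SN pair (log2 0.29, SE 0.10, edgeR unadjusted p = 0.0176). Atp5k was at 74 and 61.8 CPM in the NSN pair of libraries against 93.7 and 76.5 CPM in the SN pair (log2 0.33, SE 0.12, edgeR unadjusted p = 0.0204). In these 3 genes both SN libraries exceeded both NSN libraries, by 1.22 to 1.28 times in the fitted fold. Cox6a2 was at 14.3 and 12.6 CPM in the NSN pair of libraries against 17.7 and 16.9 CPM in the SN pair (log2 0.37, SE 0.14, edgeR unadjusted p = 0.0215). Cox6b1 was at 136 and 106 CPM in the NSN pair of libraries against 169 and 137 CPM in the SN pair (log2 0.34, SE 0.14, edgeR unadjusted p = 0.0303). Sdhd was at 165 and 155 CPM in the NSN pair of libraries against 192 and 182 CPM in the SN pair (log2 0.23, SE 0.10, edgeR unadjusted p = 0.0329). In CPM the classes did not overlap in these either, though for Cox6b1 SN replicate 2 was nearly as low as NSN replicate 1. In TPM Sdhd did overlap, at 209.7 and 216 TPM in NSN and 212 and 232 TPM in SN. The general 6A form Cox6a1 was next, at 195 and 158 CPM in the NSN pair of libraries against 242 and 196 CPM in the SN pair (log2 0.31, SE 0.13, edgeR unadjusted p = 0.0332), with SN replicate 2 close to NSN replicate 1. No adjusted p in this group was below 0.662. In the authors' deposited table, which compares single transcript models, 7 of 87 models of members had an unadjusted p under 0.05 (8.05%), against 8.36% of all models. The smallest belonged to a predicted Atp5g2 model and to Sdhd.

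Of the 4 members with the smallest unadjusted p and lower in SN, 3 belonged to complex III, and none passed the test with all libraries. Uqcrfs1 was at 85.9 and 78.1 CPM in the NSN pair of libraries against 72.9 and 72.1 CPM in the SN pair (log2 -0.18, SE 0.10, edgeR unadjusted p = 0.0899), with both SN libraries below both NSN libraries. In the authors' deposited table its model had a log2 of -0.19 and an unadjusted p of 0.0372. Uqcrc1 was at 28.1 and 24.1 CPM in the NSN pair of libraries against 16.3 and 25.4 CPM in the SN pair (log2 -0.32, SE 0.19, edgeR unadjusted p = 0.131). The low value belonged to SN replicate 1, and SN replicate 2 lay within the NSN range. Without SN replicate 2, when SN is that library alone and assumed to vary like NSN, Uqcrc1 was called at a log2 of -0.68 (edgeR adjusted p = 0.00898), the only member called in the settings run, and in that setting edgeR called 289 genes in all. Without SN replicate 1 Uqcrc1 was at -0.03 (edgeR adjusted p = 0.997). Cyc1 was at 31.2 and 31.4 CPM in the NSN pair of libraries against 30.7 and 27.3 CPM in the SN pair (log2 -0.11, SE 0.12, edgeR unadjusted p = 0.364), and Cox8c of complex IV at 1.2 and 0.972 CPM in the NSN pair of libraries against 0.874 and 1.16 CPM in the SN pair (log2 -0.10 (SE 0.45)). The complex medians were 0.18 over 4 members of complex II, 0.05 over 9 of complex III, 0.17 over 16 of complex IV and 0.12 over 17 of complex V. Each moved with the libraries: leaving out 1 library gave 0.12 (without NSN replicate 2) to 0.28 (without NSN replicate 1) for complex II and -0.08 (without NSN replicate 2) to 0.19 (without SN replicate 2) for complex III. It gave 0.02 (without NSN replicate 2) to 0.33 (without NSN replicate 1) for complex IV and -0.0081 (without SN replicate 1) to 0.29 (without NSN replicate 1) for complex V. The difference between complexes was not tested.

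**Figure D3:**
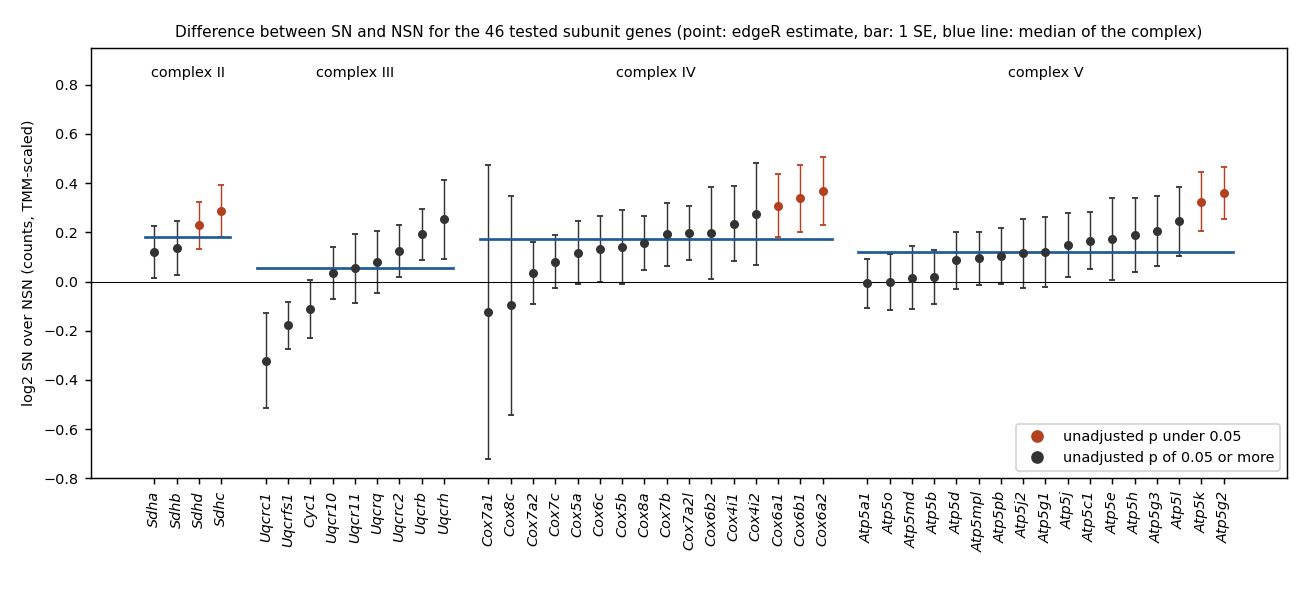
log2 of SN over NSN for the 46 tested subunit genes by complex, with 1 standard error, and the median of each complex as a blue line. The 7 genes with an unadjusted p under 0.05 lie in complexes II, IV and V, and complex III has the lowest median (0.05) and holds Uqcrc1 at -0.32.

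No tissue or general form passed the test either, and the difference between paired forms was not tested. The log2 values were 0.23 (SE 0.15) for Cox4i1 and 0.27 (SE 0.21) for Cox4i2, 0.31 (SE 0.13) for Cox6a1 and 0.37 (SE 0.14) for Cox6a2, and 0.34 (SE 0.14) for Cox6b1 and 0.20 (SE 0.19) for Cox6b2. They were 0.03 (SE 0.12) for Cox7a2, -0.12 (SE 0.60) for Cox7a1 and 0.20 (SE 0.11) for Cox7a2l, 0.19 (SE 0.13) for Cox7b, and 0.16 (SE 0.11) for Cox8a. The rare forms Cox7a1 and Cox8c had standard errors of 0.60 and 0.45, the widest of the members, and their depth gives little hold on a difference. In the c ring, Atp5g1 was at a log2 of 0.12 (SE 0.14) and Atp5g3 at 0.21 (SE 0.14), beside Atp5g2 above. Sdha was at 0.12 (SE 0.11) and Sdhb at 0.14 (SE 0.11), the lower pair of complex II. The most abundant members of the other complexes were at 0.17 (SE 0.17) for Atp5e and 0.05 (SE 0.14) for Uqcr11. Uqcrh, Atp5l and Atp5md were at 0.25 (SE 0.16), 0.24 (SE 0.14) and 0.02 (SE 0.13). Atp5a1, Atp5o and Atp5b lay at -0.01 (SE 0.10), -0.00 (SE 0.11) and 0.02 (SE 0.11). Signs of the smaller of these values changed with a library or the scaling, as listed in the closing part. Larger ones moved as well: without SN replicate 1 Uqcrh was at 0.0034, Atp5l at 0.07 and Cox4i1 at 0.05, and without NSN replicate 2 Sdhb was at 0.0048 and Cox7b at 0.0095.

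Over all members, on TMM-scaled CPM, the median difference was larger between the libraries of a class than between the classes. NSN replicate 1 exceeded NSN replicate 2 in 43 of 46 members (93.5%), against 48.4% of all genes, and SN replicate 1 exceeded SN replicate 2 in 43 of 46 (93.5%), against 49.3%. The median log2 of replicate 1 over replicate 2 was 0.26 in NSN and 0.22 in SN, above the 0.13 between the classes. The replicate medians compare single libraries, whereas the class median rests on 2 libraries per class, so a larger spread is built into the former. Complex II was an exception, with 0.12 in NSN and 0.10 in SN against 0.18 between the classes. Over all genes these medians were -0.01 and -0.0045. The exceptions in NSN were Atp5a1, Atp5b and Cyc1, and in SN Uqcrb, Uqcrc1 and Cox8c. On the same scale NSN replicate 2 was the lowest library for 38 members and SN replicate 1 the highest for 36. This order depends on the scaling, as the TMM factor was 0.90 for SN replicate 1 and 1.01 for SN replicate 2. As an unscaled share of counts, the members were highest in NSN replicate 1 (0.91%). SN replicate 1 was at 0.89%, SN replicate 2 at 0.83% and NSN replicate 2 at 0.81%. Complex I subunits also had replicate 1 higher on TMM-scaled CPM, in 37 of 39 genes in NSN and in 36 of 39 in SN. Their median log2 of SN over NSN was 0.03. Length moved with this pattern. Genes of log2 CPM 6 to 9, the range of most members, had replicate medians of 0.00 in NSN and 0.05 in SN. The 123 genes of that abundance that were no members and had an effective length under 500 bases had medians of 0.28 and 0.19, and a median log2 of SN over NSN of 0.11 with 82.9% above 0. Members under 500 bases had replicate medians of 0.31 and 0.27, and longer members 0.16 and 0.20. These ranges were chosen after values were seen, and the part that length plays in the result was not tested.

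**Figure D4:**
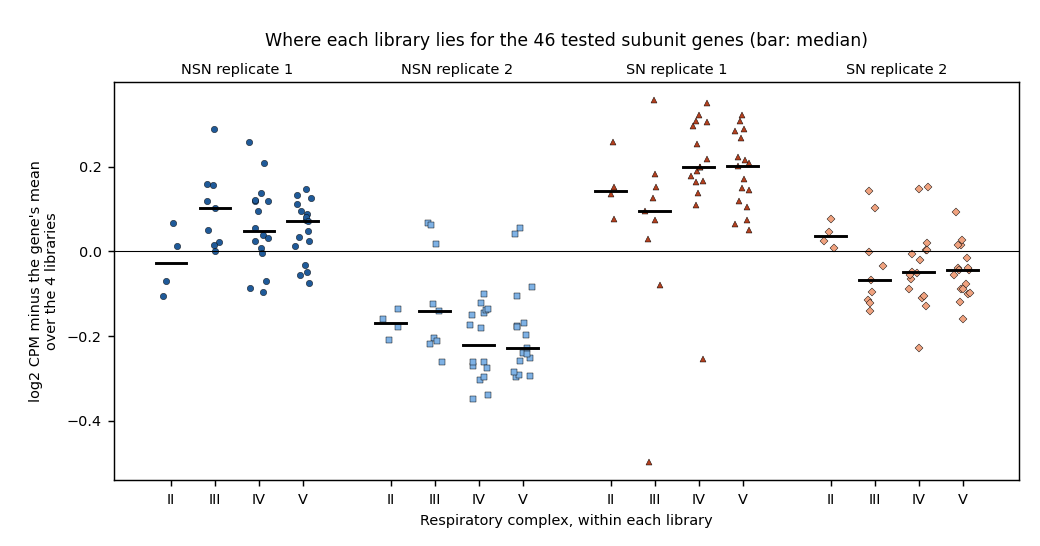
TMM-scaled log2 CPM of each of the 46 tested genes in each library, minus the gene's mean over the 4 libraries, by complex, with medians as bars. Over all members NSN replicate 2 lies lowest and SN replicate 1 highest, with medians of -0.19 and 0.17, although in complex III NSN replicate 1 has the highest median (0.10 against 0.09), and Uqcrc1 is the lowest point of SN replicate 1.

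**Figure D5:**
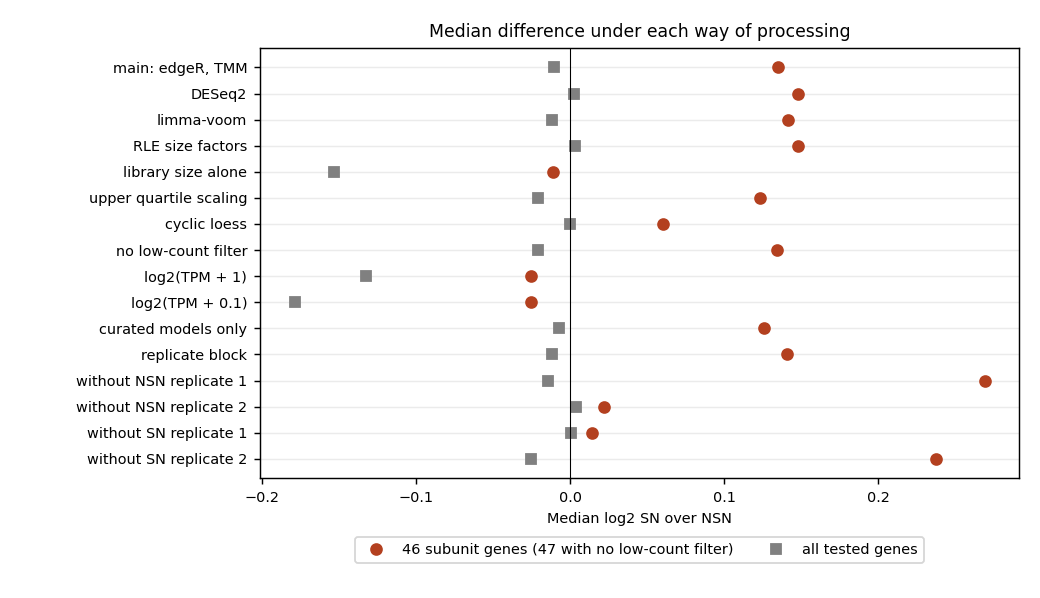
Median log2 of SN over NSN for the subunit genes (circles) and for all tested genes (squares) under each way of processing, with DESeq2 shown once since its filtering does not alter the log2 values. The circle is at 0.13 with edgeR and TMM scaling, near 0 without NSN replicate 2 or SN replicate 1, and to the right of the square in each setting shown.

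Assembly factors and carriers of the same pathway were counted from lists of known members, and the edgeR test called 0 of them at an adjusted p of 0.05. The counts at an unadjusted p under 0.05 stand beside 4.01% of all genes higher in SN and 3.46% lower. In complex II assembly, 0 of 4 genes had an unadjusted p under 0.05; Sdhaf2, which helps attach FAD to Sdha, was at 0.03 (SE 0.09) and Sdhaf4 at -0.03 (SE 0.09) on the log2 scale of SN over NSN. In complex III assembly it was 0 of 6, with Lyrm7, a chaperone of the Rieske protein, at 0.40 (SE 0.24) and Ttc19 at 0.25 (SE 0.15). In complex IV assembly 1 of 25 tested genes (4.0%) was higher at that limit and 0 lower, namely Cmc1, a mitochondrial assembly factor, at 105 and 90.6 CPM in the NSN pair of libraries against 122 and 119 CPM in the SN pair (log2 0.29 (SE 0.10)). Taco1, which activates translation of a mitochondrially encoded subunit, was at -0.43 (SE 0.21). For complex V, 1 of 7 was higher, namely Atpif1, the inhibitor of ATP hydrolysis by the synthase, at 98.3 and 83 CPM in the NSN pair of libraries against 118 and 99.9 CPM in the SN pair (log2 0.27 (SE 0.11)), while the assembly factor Tmem70 was at 0.07 (SE 0.09). Of 15 tested genes for cytochrome c and ubiquinone synthesis, 1 was higher, Pdss1, which makes the ubiquinone tail, at 3.16 and 2.97 CPM in the NSN pair of libraries against 5.21 and 4.11 CPM in the SN pair (log2 0.60 (SE 0.25)), and Coq3, a ubiquinone methyltransferase, was at -0.17 (SE 0.10). Of 12 nuclear regulators, 0 passed that limit; Tfb1m, a mitochondrial rRNA methyltransferase, was at 0.21 (SE 0.10) and Ppargc1a, a coactivator of respiration genes, at -1.16 (SE 0.63). Ndufa4, a complex IV subunit outside the symbol rule, was at 200.5 and 154 CPM in the NSN pair of libraries against 199 and 174 CPM in the SN pair (log2 0.08 (SE 0.13)). Medians ranged from -0.07 for the regulators to 0.05 for complex V factors, against -0.01 over all genes.

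The members lie on 18 chromosomes, 5 of them on chromosome 7, and were not chosen for sequence. Promoters from 250 bases before to 50 bases after the start were available from RefSeq (GRCm38.p6) for 35 members. On either strand, the NRF1 core CGCATGCG stood in 7 of 35 member promoters (20.0%), against 2.07% of 27025 genes. The ETS core CCGGAAG, bound by GABPA, stood in 13 of 35 (37.1%), against 9.93%. The YY1 core AAGATGGCG stood in 2 of 35 (5.71%), against 1.64%. A match is a description of letters and not a site. The shares of all genes cover each gene with a promoter, expressed in oocytes or not, and expressed genes alone were not counted. In the 60 bases before the start alone, 7 of 35 member promoters (20.0%) held an NRF1 or ETS core, against 4.79% of all genes. Of the 6 members with the smallest unadjusted p and higher in SN, promoters were available for 4, and these held a match there, which was not tested against the class difference. They are shown here 5′ to 3′ on the minus strand of each gene with the match in capitals, because these are the members at the head of the comparison.
Atp5g2: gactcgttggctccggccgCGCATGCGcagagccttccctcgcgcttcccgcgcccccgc
Atp5k: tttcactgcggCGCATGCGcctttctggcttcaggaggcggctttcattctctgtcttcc
Sdhd: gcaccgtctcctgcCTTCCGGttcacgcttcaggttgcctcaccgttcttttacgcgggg
Cox6b1: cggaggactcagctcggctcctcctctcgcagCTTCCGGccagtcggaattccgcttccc
The windows are chr15:102671048-102671107, chr5:108434400-108434459, chr9:50603850-50603909 and chr7:30626115-30626174, with the NRF1 core in Atp5g2 and Atp5k and the ETS core, as its reverse complement, in Sdhd and Cox6b1. Uqcrc1, low in SN replicate 1, also has an NRF1 core in its promoter.

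The members had 87 models, of which 68 are curated and 19 predicted, and 98.8% of their counts fell on curated models. A single model represented 28 members, and in 13 of the other 19 the leading model took more than 90% of the counts. The exceptions were Atp5g1, Atp5g2, Atp5g3, Atp5j, Cox6b2 and Cyc1. In Atp5g1, which encodes the leading c ring copy, a pair of curated models took 53.2% and 44.2% of the counts in NSN replicate 1 and 50.3% and 47.9% in SN replicate 1. In Cox6b2, 5 curated models shared the counts, and the leading one took 42.1% and 33.2% in NSN and 41.2% and 40.7% in SN. In Cyc1 a predicted model took 50.7% and 62.6% in NSN and 61.3% and 58.3% in SN, so its values rest partly on a model that is not curated. In Atp5g3 the second model, at 2.95 to 8.41 TPM, took 8.15% and 5.26% in NSN and 13.7% and 11.7% in SN. The classes did not overlap in this share, but how many of all models separate the classes in this way was not counted. Estimated counts are divided between models by likelihood, so these shares have an estimation error that was not measured here.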

How the data were processed

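Poly(A) RNA of 4 libraries was analysed. Per the submitters' processing notes, HISAT2, Bowtie2, RSEM and the build mm10 were used; no version or role is given. Per the file headers, the authors deposited a read count per RefSeq transcript model, here treated as an estimated count because 59.8% of the values above 0 were not whole, with TPM, FPKM, a normalized count (a signal scaled per library), class averages, a log2 ratio and a p-value. FPKM, the normalized signal and the averages were not used. The authors' deposited log2 ratios and p-values are quoted as theirs.

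Estimated counts of the 48574 models were summed to 17945 genes and rounded. Genes were filtered with filterByExpr, scaled by TMM and tested with edgeR 4.0.16 (quasi-likelihood, robust) in R 4.3.3, with Benjamini-Hochberg adjustment over all 13426 tested genes at 0.05, and no covariate. DESeq2 1.42.0 (with and without independent filtering, the latter added after seeing the data), limma 3.58.1, other scalings and filters, log2(TPM + 1) and log2(TPM + 0.1), a replicate block and leaving out each library were alternatives. Depth limits precision as given above. TPM were summed per gene.

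Members and lists were chosen with earlier results of these data known. Genes given in full are the highest and lowest of each complex, all isoform families and Sdh genes, and the 6 highest and 4 lowest in SN by unadjusted p. Members outside this rule (among them Cox6a1 by p, Uqcrc2, Atp5b, Atp5a1, Atp5c1 and Atp5d) were named after their values were seen. The NRF1 core was shortened to its inner bases after a longer form had been searched, which matched fewer promoters of members and of all genes.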

Additional observations from a re-analysis of the deposited data

How the results depend on the processing

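With 2 libraries per class, each value rests on few samples. The number of genes called by adjusted p, 0 with edgeR, was 47 with DESeq2, 13 with DESeq2 without independent filtering, 15 with library size alone, 15 with no filter, 47 and 45 on log2(TPM + 1) and log2(TPM + 0.1), 1 with curated models only and 44 with a replicate block, and 2 to 289 when a library was left out. Members called were 0 to 1 when a library was left out. Members with a log2 above 0, 39 with edgeR, were 21 with library size alone, 19 on both TPM scales and 26 to 42 without a library. With the replicate block 0 members were called, 39 were above 0 and their median was 0.14; deviations of same-numbered libraries correlated at 0.03 over all genes and 0.21 over members, and 2 pairs cannot show that the numbers pair the libraries. Signs turned, in no case past a threshold. With library size alone Atp5g1 was -0.0288, Atp5md -0.1266, Cox7a2 -0.1142, Sdha -0.0227, Sdhb -0.0078 and Uqcr11 -0.0939. On log2(TPM + 1) Atp5g1 was -0.0369, Atp5md -0.1006, Cox7a2 -0.1265, Sdha -0.0541, Sdhb -0.0273 and Uqcr11 -0.0759. On log2(TPM + 0.1) Atp5g1 was -0.0369, Atp5md -0.1009, Cox7a2 -0.1267, Sdha -0.0562, Sdhb -0.0274 and Uqcr11 -0.0759. With cyclic loess Cox7a2 was -0.0461 and Uqcr11 -0.0338. Without a library, ranges were -0.309 to 0.0846 for Cox7a1, -0.3103 to 0.0928 for Cox8c, -0.0574 to 0.3191 for Atp5g1, -0.1327 to 0.1819 for Atp5md, -0.0232 to 0.4538 for Cox6b2, -0.1127 to 0.1769 for Cox7a2, -0.122 to 0.2547 for Uqcr11 and -0.0828 to 0.3971 for Atp5e. The members' median ranged from 0.01 to 0.27, and that of complex V from -0.0081 to 0.2937. Leaving out a library moved 25 of 28 named log2 values by over 1.5 times in at least 1 case. The cause was not tested.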
